A study of Mus musculus with 8 samples.

Results

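The p53 pathway genes described here are the tumor suppressor gene Trp53, its regulators Mdm2 and Mdm4, and 7 genes known as targets of the p53 protein, namely Cdkn1a, Ccng1, Phlda3, Trp53inp1, Bax, Bbc3 and Zmat3. They were chosen by gene symbol, with earlier results of these data known. All 10 had a row among the 18635 genes of the RNA sequencing (RNA-seq) table. The samples were tumor-educated macrophages (TEMs), which are bone marrow-derived macrophages (BMDMs) grown from the marrow of young adult C57BL/6 mice with L929-conditioned medium and then kept for 24 h in tumor-conditioned medium (TCM) of AE17, a murine mesothelioma line. Both groups carried floxed alleles of Phgdh, the first enzyme of serine synthesis, and both received TCM. The PHGDH-deficient group was Phgdh fl/fl Cx3cr1-Cre, with Cre driven from 1 allele of Cx3cr1, a chemokine receptor gene of monocytes and macrophages, and the control group was Phgdh fl/fl with both Cx3cr1 alleles intact. Each group had 4 biological replicates. Because the controls lacked Cre, loss of Phgdh and presence of the Cre allele cannot be told apart, and macrophages cultured without TCM are not analysed here.

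The p53 protein is a transcription factor that is activated by DNA damage, nucleotide shortage, oncogene signaling and other stresses. In unstressed cells it is kept at a low level by MDM2, a ubiquitin ligase that marks it for degradation, and by the related protein MDM4, which binds and blocks its activation domain. Mdm2 is itself a p53 target, which makes a feedback loop. Other targets stop the cell cycle, trigger mitochondrial apoptosis, or alter signaling and RNA processing. Control of p53 acts largely on protein stability and modification, which RNA-seq does not measure, and in bulk samples fewer cells of a type and less RNA per cell cannot be told apart.

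The libraries held 38219563 to 47027420 reads assigned to genes, and values are given as normalized counts, that is, reads divided by a size factor for each sample. Phgdh itself stood at 117 ± 9.82 in Phgdh fl/fl and 27.1 ± 9.39 in PHGDH-deficient TEMs (SD, n = 4 each), which is a log2 difference of −2.15 (SE 0.21, adjusted p = 5.09e-08, limma). The first principal component separated the genotypes and carried 44.8% of the variance. The second, with 13.2%, set replicates 1 and 4 of both genotypes apart from replicates 2 and 3. Along the first component Phgdh fl/fl replicate 1 lay at 14.02, against 20.04 to 21.25 for the other controls. All 7 macrophage markers were measured, and 3 of them were lower in PHGDH-deficient TEMs by limma. The 7 markers summed to normalized counts of 986500 to 1076000 in controls and 973600 to 1049000 in PHGDH-deficient TEMs. Most of each sum came from Lyz2, with means of 719700 and 706000. The means of Fcgr1 were 17340 and 13110, and those of Itgam 21170 and 18560. Only Mertk had a higher mean in PHGDH-deficient TEMs, 4560 beside 4494. Of 7 markers of mesothelial or epithelial cells only Upk3b had a row, at a mean of 2.59 and 2.30. Among other cell types, the 3 endothelial markers summed to 601 to 698 in controls and 728 to 791 in PHGDH-deficient TEMs, and S100a8, the only neutrophil marker of 5 with a row, gave 467 to 575 and 576 to 631. Of these, S100a8 and the endothelial marker Kdr were higher by limma, while the neutrophil markers Ly6g, S100a9, Elane and Mpo had no row. Lists for fibroblasts, T cells, B cells, dendritic cells and mast cells summed to at most 49.6 in any sample. The part of these cells in the results was not tested.

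Of the 10 genes, 8 differed between the genotypes at an adjusted p under 0.05 by limma on log2(normalized count + 1), against 41.0% of the 13629 genes tested. Mdm4, Ccng1, Bbc3, Phlda3 and Trp53inp1 were higher in PHGDH-deficient TEMs, which is 5 genes against a background of 20.8% of all tested genes. Trp53, Cdkn1a and Bax were lower, which is 3 genes against 20.3%. Mdm2 and Zmat3 did not pass the test. The same 8 genes had samples that did not overlap between the genotypes, as had 36.7% of all tested genes. Differences were small, from a fall of 18.9% for Trp53 to a rise of 30.6% for Trp53inp1, and the median log2 fold change of the 10 genes was 0.067, beside −0.0018 for all tested genes. The known p53 targets did not move in 1 direction: Cdkn1a and Bax were lower, and Ccng1, Phlda3, Trp53inp1 and Bbc3 higher. All 8 calls were kept, in the same direction, when any single sample was left out. Cdkn1a lost its call under quantile normalization. With replicates 1 and 4 alone, Cdkn1a, Bax and Ccng1 kept their direction and lost their calls.

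**Figure D1:**
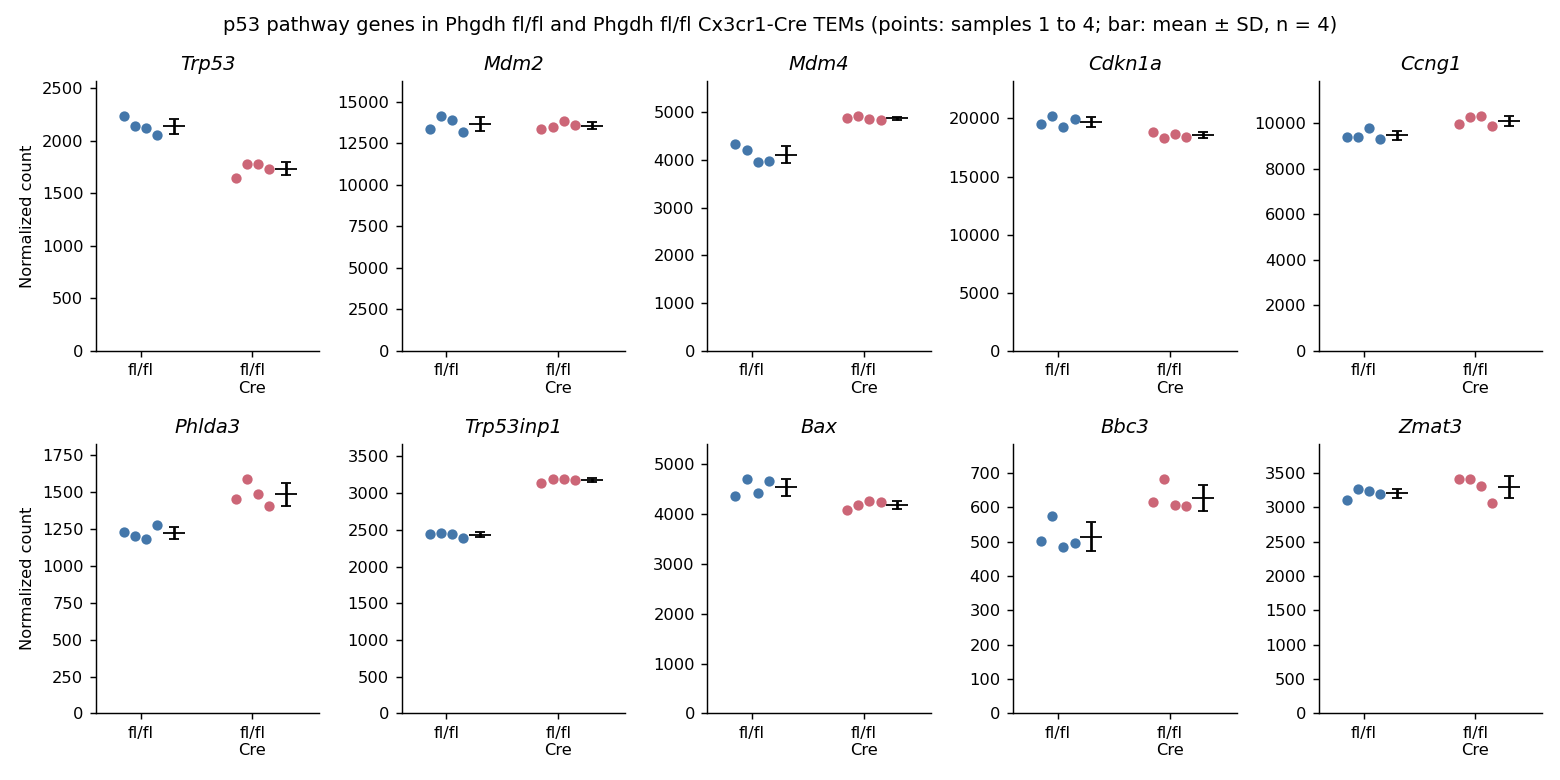
Normalized counts (vertical axes, each from 0) of the 10 p53 pathway genes in TEMs, with a point for each of the 4 samples per genotype in the order 1 to 4, Phgdh fl/fl on the left (blue) and Phgdh fl/fl Cx3cr1-Cre on the right (red), and bars for the mean ± SD. The genotypes overlap for Mdm2 and Zmat3 and do not overlap for the other 8 genes.

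The p53 protein binds DNA at a consensus decamer that usually occurs as a closely spaced pair. RefSeq promoter windows on GRCm38.p6, from 250 bases before to 50 bases after a gene's start, were available for 8 of the 10 genes, and those of Zmat3 and Trp53inp1 were not. A match to the consensus decamer, with no mismatch allowed, was found in windows of Trp53, Mdm2, Cdkn1a, Ccng1 and Bax. The consensus reads the same on both strands. Matches lay in 8.36% of all 32851 windows, and 9.55% of the 27025 genes with a window had a match. Near matches, also those beside a marked decamer, were not sought. No match was found in the windows of Mdm4, Phlda3 and Bbc3, nor in another window of Cdkn1a, at a start further downstream. Sequence outside the windows was not searched, so any of the genes may hold p53 sites elsewhere. Each match is shown 5′ to 3′ on the strand of its gene, in capitals, with 30 bases on either side, so that its place can be set beside the values given for each gene.
Trp53, chr11:69580254-69580323, plus strand: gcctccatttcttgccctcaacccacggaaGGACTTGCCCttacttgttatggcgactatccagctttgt
Mdm2, chr10:117710905-117710974, minus strand: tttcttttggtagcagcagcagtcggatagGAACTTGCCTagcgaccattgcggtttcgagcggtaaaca
Cdkn1a, chr17:29090876-29090967, plus strand: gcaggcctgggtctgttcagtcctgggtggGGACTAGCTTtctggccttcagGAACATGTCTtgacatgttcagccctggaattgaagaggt
Ccng1, chr11:40755432-40755501, minus strand: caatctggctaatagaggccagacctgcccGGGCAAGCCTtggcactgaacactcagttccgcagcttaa
Bax, chr7:45467060-45467129, minus strand: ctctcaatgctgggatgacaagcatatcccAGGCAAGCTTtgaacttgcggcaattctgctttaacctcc
The decamer lay 75 to 66 bases before the start of Trp53, 186 to 177 before that of Mdm2, 185 to 176 before that of Ccng1 and 201 to 192 before that of Bax. In the upstream of its windows, Cdkn1a held a pair of decamers, 12 bases apart and 73 to 42 bases before that start. A pair with at most 13 bases between its decamers occurred in 24 of all windows (0.0731%). Among tested genes with a window, a decamer was present in 8.28% of those higher in PHGDH-deficient TEMs, 8.8% of those lower and 7.92% of those not called. These matches describe the letters in the windows only, and binding was not measured.

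Trp53, which encodes p53 (ENSMUSG00000059552, mm10 chr11:69580359-69591873, plus strand), was lower in PHGDH-deficient TEMs. Its normalized counts were 2232.1, 2134.4, 2121.2 and 2056.0 in the Phgdh fl/fl samples and 1645.0, 1781.3, 1777.0 and 1726.3 in the PHGDH-deficient samples. Every control sample was above every PHGDH-deficient one. The means were 2135.9 ± 72.7 and 1732.4 ± 63.4 (SD, n = 4 each), and Trp53 fell by 18.9%, with a log2 fold change of −0.30 (SE 0.035, 95% interval −0.37 to −0.23, adjusted p = 5.08e-07, limma). The difference was −0.35 with replicates 1 and 4 alone and −0.26 with replicates 2 and 3 alone. Among all tested genes, 82.4% had a smaller absolute log2 fold change than Trp53.

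Mdm2 (ENSMUSG00000020184, mm10 chr10:117688875-117710758, minus strand), the ligase of the feedback loop, did not pass the test. Its normalized counts were 13361.1, 14128.2, 13889.8 and 13198.2 in Phgdh fl/fl TEMs and 13360.0, 13470.8, 13856.3 and 13586.5 in PHGDH-deficient TEMs. All 4 PHGDH-deficient samples lay within the range of the controls. The log2 fold change was −0.0076 (SE 0.024, adjusted p = 0.834, limma), and the exact permutation test over the 70 ways to label the 8 samples gave p = 0.771. The 95% interval of the log2 fold change was −0.058 to 0.043, which limits the size of any difference in Mdm2 RNA and does not show that the groups were the same.

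Mdm4, the other inhibitor of p53 (ENSMUSG00000054387, mm10 chr1:132959484-133030561, minus strand), was higher in PHGDH-deficient TEMs. The control samples gave 4334.1, 4206.2, 3948.7 and 3976.4 normalized counts and the PHGDH-deficient samples gave 4874.2, 4919.8, 4871.6 and 4847.2. The genotypes did not overlap, and the PHGDH-deficient samples lay close together, with an SD of 30.3 beside 185 in controls. The rise was 18.5%, a log2 fold change of 0.25 (SE 0.029, 95% interval 0.19 to 0.31, adjusted p = 7.23e-07, limma). The gene spans a processed pseudogene on the opposite strand, Gm29257, that shares 0 exon bases with it.

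Cdkn1a encodes p21, the inhibitor of cyclin-dependent kinases through which p53 stops the cell cycle (ENSMUSG00000023067, mm10 chr17:29090976-29100727, plus strand). It was the member with the highest level and was slightly lower in PHGDH-deficient TEMs. Normalized counts of Cdkn1a were 19501.6, 20193.6, 19270.2 and 19911.8 in controls and 18851.9, 18281.5, 18695.4 and 18360.7 in PHGDH-deficient samples. The lowest control was above the highest PHGDH-deficient sample. Cdkn1a fell by 5.94%, with a log2 fold change of −0.088 (SE 0.022, 95% interval −0.13 to −0.043, adjusted p = 0.00262, limma). The call was lost under quantile normalization, with a log2 fold change of −0.038 (adjusted p = 0.106, limma), and with replicates 1 and 4 alone. The gene shares 273 exon bases with AC167363.2 on the opposite strand, which had a mean normalized count of 8.79, and whether reads were counted by strand is not given in the sources used here.

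Ccng1 encodes cyclin G1, which binds a phosphatase that acts on MDM2 (ENSMUSG00000020326, mm10 chr11:40748552-40755311, minus strand). Its normalized counts were 9416.6, 9408.3, 9784.0 and 9329.6 in Phgdh fl/fl and 9954.2, 10269.9, 10317.5 and 9874.3 in PHGDH-deficient TEMs. The groups did not overlap, although the highest control and the lowest PHGDH-deficient sample were close. Ccng1 was higher by 6.53%, a log2 fold change of 0.091 (SE 0.024, 95% interval 0.042 to 0.14, adjusted p = 0.00376, limma). With replicates 1 and 4 alone its adjusted p was 0.119.

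Phlda3 encodes a small membrane-binding protein that competes with the kinase AKT for membrane lipids (ENSMUSG00000041801, mm10 chr1:135766119-135769136, plus strand). Phlda3 stood at 1231.8, 1201.1, 1181.5 and 1277.5 normalized counts in controls and at 1454.8, 1590.1, 1488.3 and 1406.3 in PHGDH-deficient samples. All PHGDH-deficient samples were above all controls. The rise was 21.4%, a log2 fold change of 0.28 (SE 0.040, 95% interval 0.19 to 0.36, adjusted p = 1.01e-05, limma). The size of the Phlda3 difference was unequal between the replicate sets, at 0.19 for replicates 1 and 4 and 0.37 for replicates 2 and 3.

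Trp53inp1 had the highest log2 fold change and the smallest adjusted p of the 10 genes. It encodes a nuclear stress protein that promotes p53 phosphorylation and autophagy (ENSMUSG00000028211, mm10 chr4:11156431-11174379, plus strand). The 4 controls gave 2445.0, 2463.0, 2438.5 and 2382.2 normalized counts of Trp53inp1, and the 4 PHGDH-deficient samples gave 3140.3, 3193.6, 3192.1 and 3179.3. Both groups were tight, with an SD of 34.9 and 24.9, and they did not overlap. Trp53inp1 was higher by 30.6%, with a log2 fold change of 0.39 (SE 0.027, 95% interval 0.33 to 0.44, adjusted p = 2.75e-10, limma). The difference was 0.39 with replicates 1 and 4 and 0.38 with replicates 2 and 3, and 87.9% of tested genes had a smaller absolute log2 fold change.

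The apoptosis genes Bax and Bbc3 moved in opposite directions. Bax encodes the protein that opens the outer mitochondrial membrane (ENSMUSG00000003873, mm10 chr7:45461697-45466898, minus strand), and Bbc3 encodes PUMA, a BH3-only protein that releases BAX from its inhibitors (ENSMUSG00000002083, mm10 chr7:16308393-16318205, plus strand). Bax had normalized counts of 4353.6, 4698.6, 4424.2 and 4653.8 in Phgdh fl/fl and 4074.2, 4177.8, 4248.4 and 4239.3 in PHGDH-deficient TEMs. Each control was above each PHGDH-deficient sample. Bax fell by 7.67%, with a log2 fold change of −0.11 (SE 0.028, 95% interval −0.17 to −0.055, adjusted p = 0.0026, limma). With replicates 1 and 4 alone the adjusted p for Bax was 0.0826. Bax shares 192 exon bases with Gm45808 on the same strand. That gene had no row, so its level is unknown and reads in that stretch are uncertain.

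Bbc3 gave 501.1, 576.2, 484.8 and 495.1 normalized counts in controls and 615.5, 682.8, 607.9 and 603.0 in PHGDH-deficient samples. Replicate 2 was the highest in each genotype, and the highest control remained below the lowest PHGDH-deficient sample. Bbc3 was higher by 22%, a log2 fold change of 0.29 (SE 0.060, 95% interval 0.16 to 0.41, adjusted p = 0.000545, limma). It had the fewest reads of the 10 genes, 469 to 657 in a library, for which the counting error alone is 4.62% at the lowest. The interval for Bbc3 was also the widest of the 10.

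Zmat3 encodes a zinc finger protein that binds RNA and affects splicing and transcript stability (ENSMUSG00000027663, mm10 chr3:32334792-32366014, minus strand). It had normalized counts of 3110.7, 3268.3, 3239.6 and 3190.3 in controls and 3412.6, 3404.6, 3316.2 and 3065.5 in PHGDH-deficient samples. Of the PHGDH-deficient samples 3 were above every control, and the fourth, replicate 4, was below all of them. The log2 fold change of Zmat3 was 0.042 (SE 0.033, 95% interval −0.026 to 0.11, adjusted p = 0.323, limma), and the exact permutation test gave p = 0.314. For the other 8 genes the exact test gave p = 0.0286, which is the smallest that 4 against 4 samples allow.

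**Figure D2:**
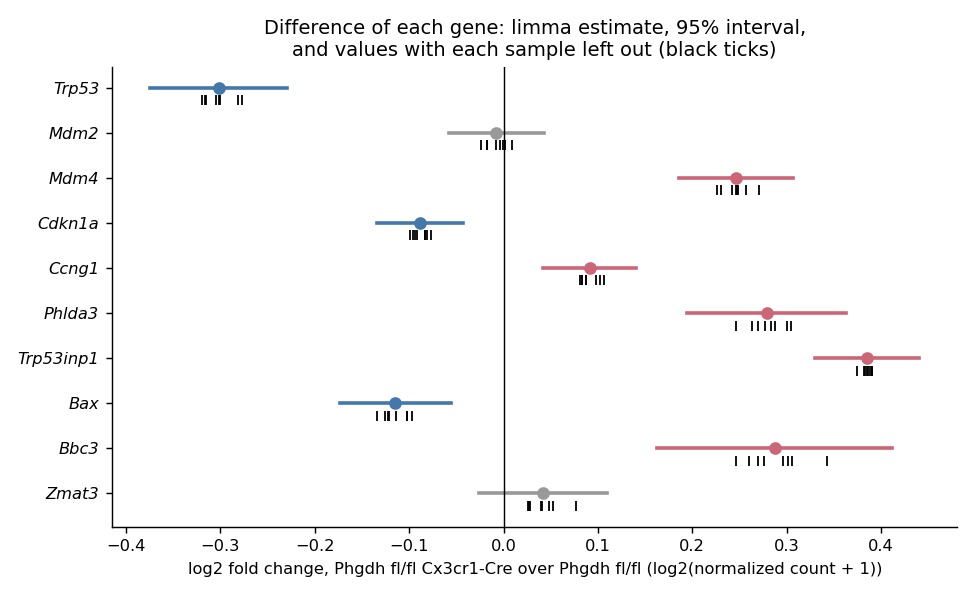
Log2 fold change of Phgdh fl/fl Cx3cr1-Cre over Phgdh fl/fl TEMs (horizontal axis) for each of the 10 genes, as the limma estimate (point) with its 95% interval (line), blue for lower, red for higher and gray for not called. Black ticks are the estimates with each of the 8 samples left out in turn, and they stay on 1 side of 0 for every gene except Mdm2.

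Levels were compared between the genes per length, as FPKM, the reads of a gene divided by its total exon length and by the size of the library. In Phgdh fl/fl TEMs the level was highest for Cdkn1a, at 128 ± 2.77 FPKM, above 97.7% of the tested genes. Bax (66.4 ± 2.48), Ccng1 (62.3 ± 1.28) and Mdm2 (61.9 ± 1.99) followed, and samples of neighbours in this order overlapped. Below them came Phlda3 at 18.1 ± 0.621, Trp53 at 12.2 ± 0.43 and Trp53inp1 at 8.67 ± 0.133, each apart from the next. Zmat3 (6.46 ± 0.136), Mdm4 (6.42 ± 0.30) and Bbc3 (5.59 ± 0.46) were the lowest, again with overlapping neighbours. Mdm4 and Zmat3 have long total exon lengths, 14798 and 11435 bases, which count all annotated exons and lower their FPKM where only shorter transcripts are made.

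The order of the levels changed in a few places in PHGDH-deficient TEMs. Ccng1 was above Bax, at 67.1 ± 1.62 against 61.9 ± 1.27 FPKM, and the samples of these genes no longer overlapped. Trp53inp1 was above Trp53, at 11.4 ± 0.115 against 9.99 ± 0.388 FPKM, the reverse of the controls and without overlap in either genotype. Mdm4, at 7.69 ± 0.0616 FPKM, stood apart above both Bbc3 (6.89 ± 0.421) and Zmat3 (6.73 ± 0.334), whose samples overlapped with each other, as did those of Mdm2 and Bax.

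**Figure D3:**
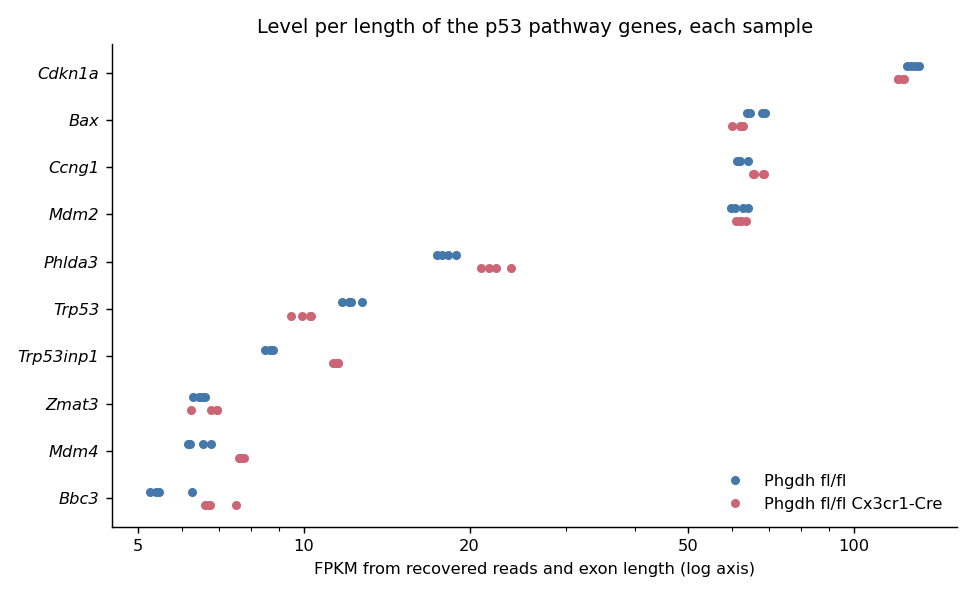
Level of each p53 pathway gene per length in each sample (horizontal log axis, FPKM), with Phgdh fl/fl TEMs in blue and Phgdh fl/fl Cx3cr1-Cre TEMs in red, ordered by the control mean. Cdkn1a is highest in both genotypes, and Trp53 and Trp53inp1 exchange places.

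Ratios of reads within a sample do not depend on its size factor. They were chosen after the values of single genes were seen and describe the same data in another form, so they are given with no test. The ratios of Mdm4 over Trp53, Trp53inp1 over Trp53 and Bbc3 over Bax had to separate the genotypes. Their numerators were higher and their denominators lower without overlap. For the other ratios given here, the ranges of the single genes also fixed the separation in advance. For Mdm4 over Mdm2 the ratio was 0.3244, 0.2977, 0.2843 and 0.3013 in controls and 0.3648, 0.3652, 0.3516 and 0.3568 in PHGDH-deficient samples. The ratio was higher in every PHGDH-deficient sample than in any control. Mdm2 over Trp53 was 6.39 ± 0.284 in controls and 7.84 ± 0.23 in PHGDH-deficient samples, and Mdm4 over Trp53 was 1.93 ± 0.0464 and 2.82 ± 0.10. Both ratios of an inhibitor to Trp53 were higher without overlap, which restates the single-gene values. In their own values, Trp53 was lower and Mdm4 higher, while Mdm2 did not pass the test. Cdkn1a over Trp53 was 9.24 ± 0.418 and 10.7 ± 0.518, and Trp53inp1 over Trp53 was 1.14 ± 0.0296 and 1.84 ± 0.0541, also without overlap. Bbc3 over Bax was 0.113 ± 0.00711 in controls and 0.150 ± 0.00982 in PHGDH-deficient samples.

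Other genes of the pathway were taken from 7 lists, in all 61 genes, of which 55 were tested, 22 were higher in PHGDH-deficient TEMs, 6 were lower and 27 did not pass the test. Their median log2 fold change was 0.084. The lists of further p53 targets held 30 tested genes, of which 14 were higher and 3 lower, with a median of 0.15. Among all tested genes 20.8% were higher and 20.3% lower, and the lists as such were not tested against them.

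Of 8 further cell cycle targets, the role Cdkn1a also has, 6 were higher and 1 lower. For each list, the background over all tested genes was 20.8% higher and 20.3% lower. Gadd45a, a stress-induced growth arrest gene, rose from 1074.2 ± 37.5 to 1493.4 ± 48.3 normalized counts (log2 fold change 0.48, adjusted p = 2.75e-09, limma), while the kinase gene Plk3 fell from 854.9 ± 19.0 to 732.9 ± 46.2 (log2 fold change −0.22, adjusted p = 0.000726, limma). Of 9 tested apoptosis targets 4 were higher and 1 lower. Eda2r, a receptor of the tumor necrosis factor receptor family, had low counts, 31.8 ± 4.04 in controls and 60.3 ± 5.35 in PHGDH-deficient samples, and the highest log2 fold change of the list at 0.91 (SE 0.17, adjusted p = 0.000159, limma). The lower gene was Aen, an exonuclease gene, with a log2 fold change of −0.12 (adjusted p = 0.0266, limma).

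Among 8 tested metabolic and redox targets 2 were higher and 1 lower, beside 20.8% and 20.3% of all tested genes. Gdf15, a secreted stress cytokine, rose from 969.5 ± 42.2 to 1526.3 ± 64.0 normalized counts (log2 fold change 0.65, adjusted p = 6.45e-11, limma), and Sesn1, a leucine-sensing inhibitor of mTORC1, fell from 3122.8 ± 122 to 2823.0 ± 54.1 (log2 fold change −0.14, adjusted p = 0.000609, limma). Of the 5 DNA repair targets the damage sensor Xpc (0.17, adjusted p = 0.000599, limma) and the polymerase gene Polk (0.20, adjusted p = 0.000447, limma) had higher log2 values. Ddb2, Polh and Ercc5 did not pass the test, with log2 fold changes of 0.038, 0.015 and 0.14.

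Genes that act on p53 from above were mixed. Of 11 tested kinases and cofactors 5 were higher and 2 lower, beside 20.8% and 20.3% of all tested genes. Hipk2, a kinase of p53, rose from 1844.0 ± 304 to 2875.1 ± 131 normalized counts (log2 fold change 0.65, adjusted p = 1.52e-07, limma), and the checkpoint kinase gene Chek1 fell from 255.7 ± 13.5 to 192 ± 10.9 (log2 fold change −0.41, adjusted p = 0.000213, limma). Among 5 genes that limit p53 apart from Mdm2 and Mdm4, the ligase gene Huwe1 was higher by 0.26 on the log2 scale (adjusted p = 2.53e-05, limma) and the ligase gene Cop1 lower, at −0.21 (adjusted p = 6.19e-05, limma). Phgdh fl/fl replicate 1, the control that lay apart on the first principal component, was the highest control for Hipk2 (2279.5) and Huwe1 (10894.7), below every PHGDH-deficient sample. The deubiquitinase gene Usp7, the phosphatase gene Ppm1d and the ligase gene Rchy1 had log2 fold changes of 0.0091, 0.033 and −0.0027 and did not pass the test. Of 9 tested Bcl-2 family partners of Bax and Bbc3, 2 were higher and the other 7 did not pass the test. That number of higher genes is near the share of 20.8% among all tested genes. The antiapoptotic gene Bcl2 had the highest log2 fold change of them, 0.15 (adjusted p = 0.000642, limma).

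**Figure D4:**
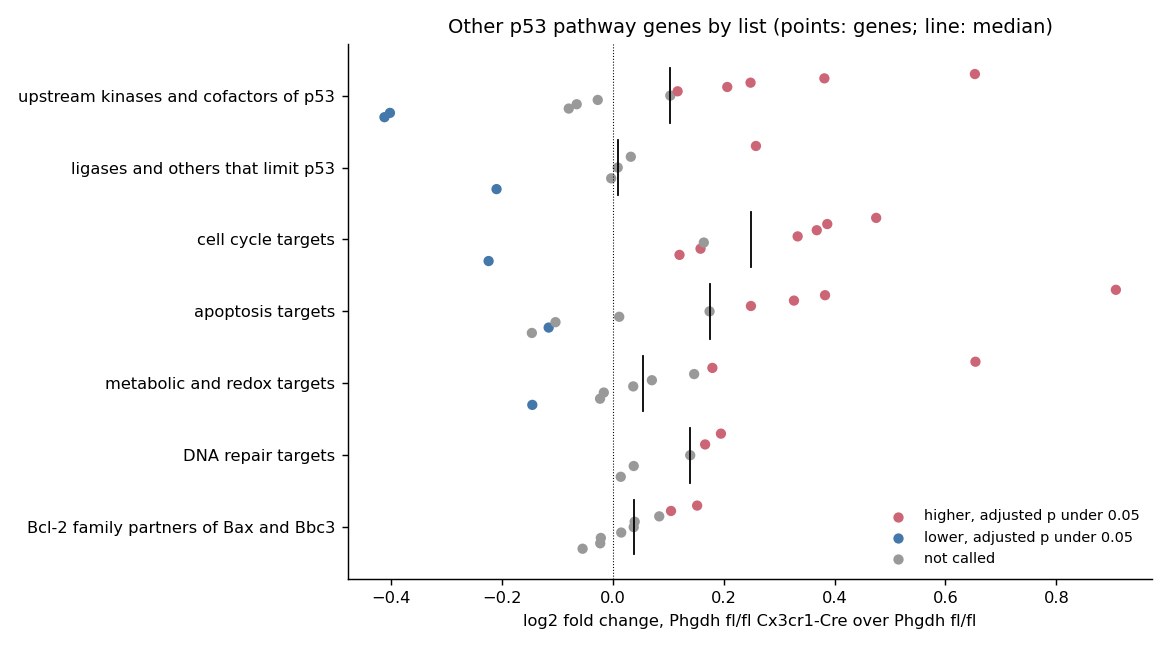
Log2 fold change of Phgdh fl/fl Cx3cr1-Cre over Phgdh fl/fl TEMs (horizontal axis) for the 55 other tested p53 pathway genes, each a point, in 7 lists, with red for higher, blue for lower and gray for not called at an adjusted p under 0.05, and a line at each list's median. The medians run from 0.0091 for the genes that limit p53 to 0.25 for the cell cycle targets.

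The genes whose pattern over the 8 samples was most like that of Trp53, by the root mean square difference of centred log2 values, were Srrt (0.0246), Itga6 (0.0259) and Nab2 (0.0297). For Cdkn1a they were Ap1m1 (0.0133), Sf1 (0.0144) and Prkch (0.0163). The measure picks genes with nearly the same log2 fold change, here −0.3017 to −0.3039 near Trp53 and −0.08394 to −0.09439 near Cdkn1a. None of the other 9 pathway genes was among the 3 nearest to Trp53 or to Cdkn1a. With this measure, that absence does not show whether the pathway genes vary together.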

How the data were processed

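Macrophage RNA was sequenced by the authors with a directional library kit, and the submitters' processing notes name mm10, TopHat2, HTSeq 0.6 and DESeq2. The deposited values of each sample are a signal: read counts divided by a size factor for that sample, although they are labelled as FPKM. Multiplied back, 100% of the 144353 values above 0 were whole reads (tolerance 0.01). The log2 fold change, test score (Wald statistic) and p-value columns that the authors deposited hold their own comparison and were not used.

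The 13629 of 18635 genes whose mean over the 8 samples reached 10 normalized counts entered a limma fit (version 3.58.1, R 4.3.3) on log2(normalized count + 1), with a trended variance, two-sided, and Benjamini-Hochberg adjustment over all tested genes. Fold changes are on that scale, which understates those of low genes. Single values had an exact permutation test. All 8 samples entered each fit. The code was tested on simulated data. Exon lengths and coordinates come from GENCODE M21. The genes and lists were chosen with earlier results of these data known. In each list of more than 5 other pathway genes, the called genes with the highest and the lowest fold change are named, and shorter lists are named in full. Where the 3 genes nearest to Trp53 and Cdkn1a are named, all tested genes were candidates. Alternatives were DESeq2 1.42.0 and edgeR 4.0.16 on recovered reads, other scalings, filters and pseudocounts, a replicate block, each sample left out, and, chosen after seeing the data, replicates 1 and 4 or 2 and 3 alone.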

Additional observations from a re-analysis of the deposited data

Results flagged for a closer look

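In 60 groups of 4 samples, formed by the 30 named genes that were examined in each genotype, 3 had a sample far from the other 3, where chance alone flags about 1 in 20 groups. Bbc3 in Phgdh fl/fl Cx3cr1-Cre replicate 2 stood at 682.8 normalized counts, and the other 3 samples lay between 603.0 and 615.5. Huwe1 in Phgdh fl/fl replicate 1 stood at 10894.7, and the other controls lay between 9058.3 and 9274.0. Gdf15 in Phgdh fl/fl Cx3cr1-Cre replicate 3 stood at 1431.4, and the others lay between 1548.2 and 1571.4. Phgdh fl/fl replicate 1 also stood apart on the first principal component. Without this sample, 8 of the 10 p53 pathway genes and 30 of the other 55 passed the test. Over all genes, 5944 of 13634 passed without it, beside 5594 of 13629 with all samples.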

How the results depend on the processing

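Across 19 alternatives, Trp53, Mdm4, Phlda3, Trp53inp1 and Bbc3 kept their direction and their call in each. Cdkn1a lost its call under quantile normalization (−0.0381, adjusted p = 0.106, limma), and the cause was not tested. With replicates 1 and 4 of both genotypes only, a fit on fewer samples, Cdkn1a (−0.0829, adjusted p = 0.102, limma), Ccng1 (0.081, adjusted p = 0.119, limma) and Bax (−0.115, adjusted p = 0.0826, limma) lost theirs. In that fit 5 of the 10 genes were called, 4 higher and 1 lower. Over all genes it called 2925 of 13597 tested, beside 5594 of 13629 in the main fit. Mdm2, not called in any alternative, turned to 0.0179 under quantile normalization, 0.00744 under scaling to total reads, 0.00931 without Phgdh fl/fl replicate 2, 0.00113 without Phgdh fl/fl replicate 3 and 0.0209 with replicates 1 and 4 only, and ranged from −0.0234 to 0.00931 with each sample left out. Leaving out each sample in turn gave log2 fold changes of −2.29 to −1.88 for Phgdh, medians of 0.055 to 0.0897 over the 10 genes, 4967 to 5944 genes called, 8 to 8 of the 10 genes and 26 to 30 of the other pathway genes. DESeq2 called 5066 genes and edgeR 5608, beside 5594, each of 13629 tested, and 8 of the 10 genes in both.

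A replicate block gave 5597 calls and changed no call among the 10 genes. Samples sharing a number had deviations from their group means correlated at 0.063, 0.098, 0.126 and 0.078. Replicate 1 of the controls correlated best with replicate 4 of the PHGDH-deficient group (0.135), so the numbers were not taken to pair samples. Correlations between the genotypes were positive within replicates 1 and 4 and within replicates 2 and 3 (0.048 to 0.135). They were negative between these sets (−0.124 to −0.036), the sets that the second principal component separated.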
